A study of Mus musculus with 6 samples.

Results

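The genes described here are 48 genes of mitosis and of the G2 phase that leads into it, a set taken by name from the named rows of a count table with 53733 such rows. Each of the 48 names matched 1 row, and all 48 rows held enough counts to be tested, among 13652 tested in all. The cells were a mouse acute myeloid leukaemia line, made by transducing foetal liver cells with 2 retroviral vectors. MSCV-Luc2-IRES-MLL-AF9 expresses the fusion oncogene MLL-AF9 and a luciferase constantly. TRE-tight-DsRED-IRES-FLT3-ITD expresses a red fluorescent reporter and FLT3-ITD, an activated mutant of a receptor tyrosine kinase, only while doxycycline is present. NSG mice, which are immunodeficient, were injected with the cells in the tail vein and fed doxycycline for 96 h. In the ON group (3 mice) doxycycline was then continued, and in the OFF group (3 mice) it was withdrawn for 48 h. Both groups carried MLL-AF9 and both vectors throughout. No group had the drug without the transgene, so the effects of losing FLT3-ITD and of losing doxycycline cannot be told apart. All cells came from 1 line. Viable leukaemic cells were isolated from the marrow by sorting, and RNA was sequenced from the 3' ends of mRNAs, with 1 library per mouse. The comparison of OFF with ON asks what becomes of the mRNAs of dividing cells 48 h after FLT3-ITD is shut off.

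A cell enters mitosis when cyclin A and cyclin B activate the kinase Cdk1, with help from Cdc25 phosphatases and the kinases Plk1 and Aurora A. Chromosomes are then condensed, attached to the spindle through kinetochores, and held until the spindle checkpoint allows the anaphase-promoting complex to mark cyclin B and securin for destruction. The mRNAs of most of these proteins are low in G1 and high in G2 and mitosis, through the promoter-bound complexes DREAM and MuvB, Mybl2 and Foxm1, so in an unsynchronised population their levels follow the share of dividing cells. FLT3-ITD is known for driving proliferation of myeloid progenitors.

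The 6 libraries held 8335234 to 9316361 counts in named rows, so that 1 count was worth 0.11 to 0.124 CPM (counts per 1000000 counts of the library, after TMM scaling for library composition). A count of 0 allows up to 3 counts, worth 0.33 to 0.372 CPM. Because amplified reads carry no molecular tags, this limit is for counting error alone. Of the markers chosen for the leukaemia line, Hoxa9, Meis1, Mpo, Elane, Ptprc, Cd34 and Ctsg were all detected in each library, and Kit was at 0 to 5 counts. The first principal component held 67.61% of the variance of log2 CPM. On it OFF replicates 1 to 3 stood at 21.36, 39.87 and 48.33 and ON at -37.48 to -34.73, so OFF replicate 1 lay nearest ON. OFF replicate 3 stood apart from OFF replicates 1 and 2 on the second principal component (-29.29 against 23.89 and 14.35), which held 13.58% of that variance. Ribosomal RNA rows took 10.14% of its counts against 17.96% and 17.21% in OFF replicates 1 and 2, and 11.29% to 16.22% in ON. It is therefore followed separately in what comes next.

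As a set, the mitotic mRNAs differed little between OFF and ON 48 h after doxycycline withdrawal. Ccnb2 (cyclin B2) and Ncapd2 (a condensin subunit) were higher in OFF, Bub1 (a spindle checkpoint kinase) was lower, and the other 45 genes did not pass the test. A gene was called where its adjusted p was under 0.05 in edgeR's quasi-likelihood test, with Benjamini-Hochberg adjustment over all 13652 rows. The 3 called genes made up 6.25% of the 48, against 34.8% of all rows called in either direction (17.3% higher and 17.5% lower). That gap depended on OFF replicate 3. Without this library 8 of the 48 were called higher and 7 lower, nearer to the 37.6% of all rows called in that fit. The median log2 fold change, OFF minus ON throughout, was -0.03 over the 48 genes and 0.0043 over all rows. The lower and upper quartiles were -0.15 and 0.10 for the 48, and -0.31 and 0.36 for all rows. The extremes of the 48 were -0.39 for Bub1 and 0.42 for Ccnb2. Signs were mixed, with 22 genes above 0 and 26 below.

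A gene that misses the test is not thereby unchanged, so the size of change that the data still allow was read from the 95% interval of each fold change. All 48 intervals lay inside 2-fold in either direction, as did 67.6% of all rows. Within 1.5-fold, a bound chosen after the values were seen, lay 44 of the 48 intervals, against 34.2% of all rows. The 4 exceptions were Ccnb2, Bub1, Cdc25b and Cdc25c, of which the last pair had the lowest counts of the set. The widest bound belonged to Cdc25b, whose interval ran from -0.11 to 0.78. The median SE was 0.12 for the 48 genes and 0.16 for all rows, so the 48 were measured with a smaller error than the typical row. In bulk RNA, a smaller share of cells in mitosis and less of an mRNA in each dividing cell cannot be told apart, and the same holds for a level that did not move.

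**Figure D1:**
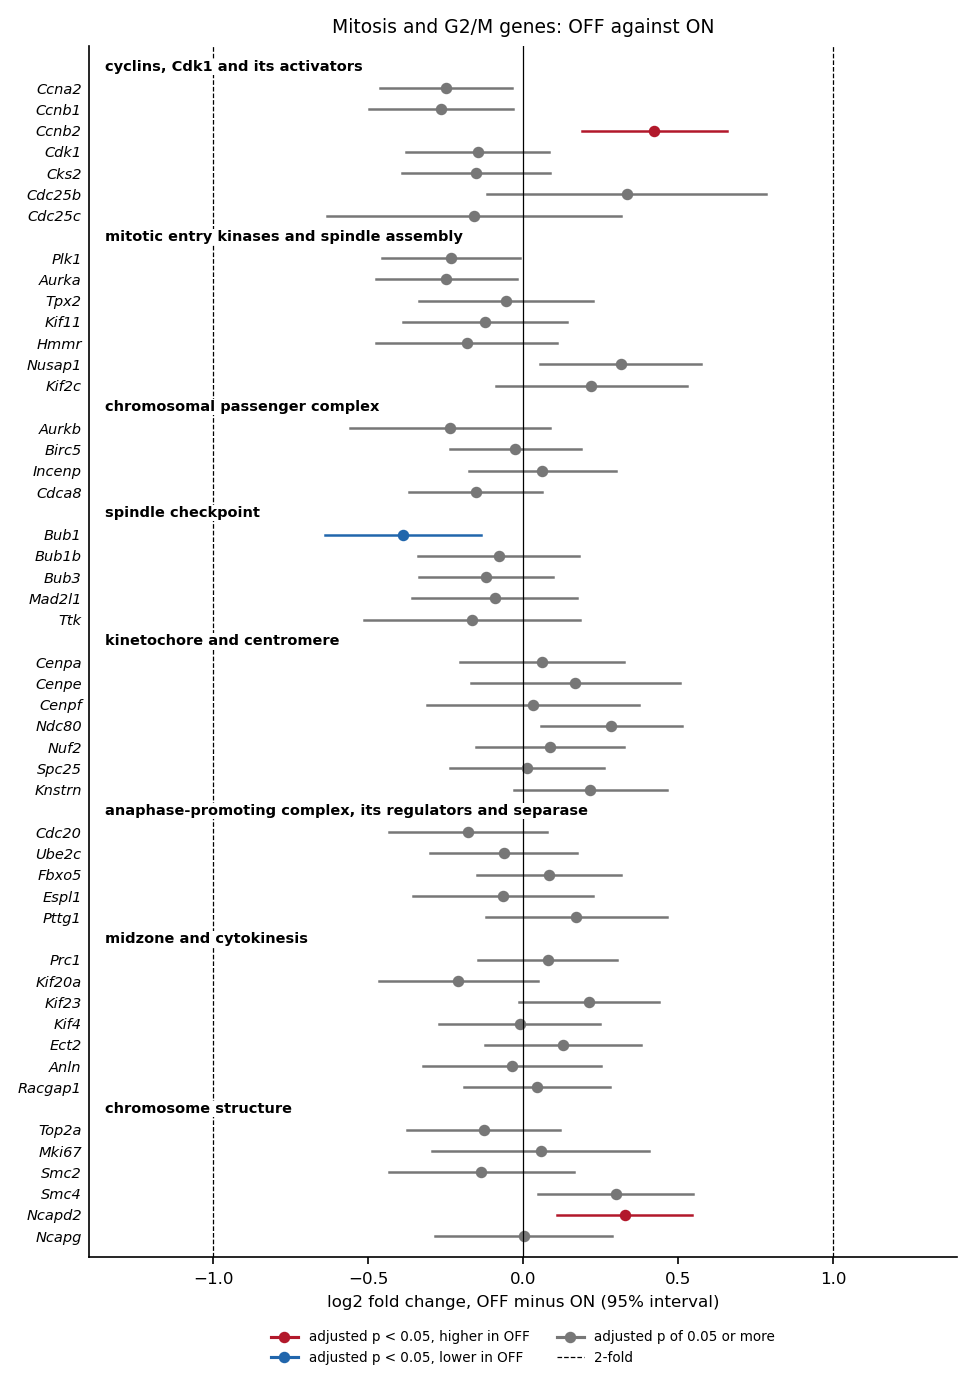
Log2 fold change, OFF minus ON, of each of the 48 genes, grouped by role, with its 95% interval from the edgeR fit (3 libraries a group). Ccnb2 and Ncapd2 lie to the right of 0 and Bub1 to the left with adjusted p under 0.05, and every interval lies inside the dashed 2-fold lines.

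**Figure D2:**
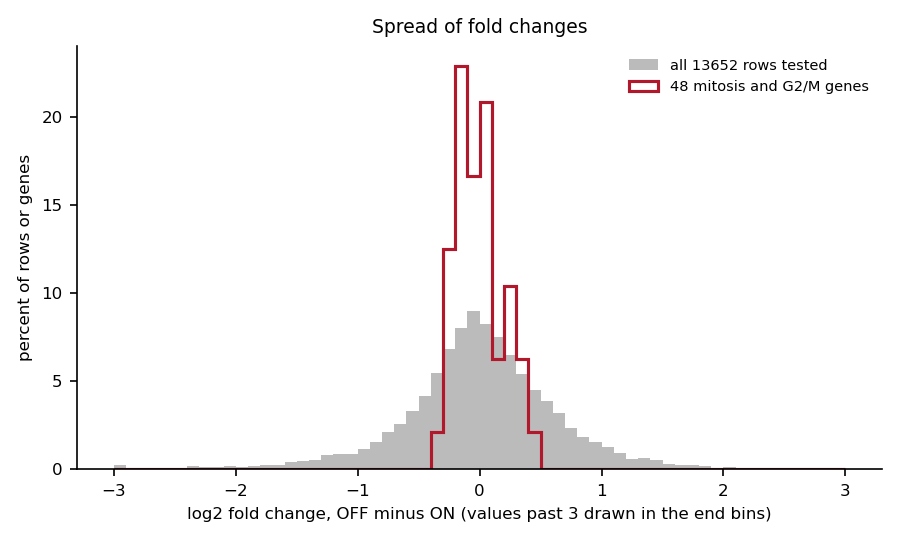
Share of rows or genes, in percent, by log2 fold change, OFF minus ON, for all 13652 rows tested (grey) and for the 48 genes (outline). The 48 genes span -0.39 to 0.42, inside the spread of all rows.

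Many of these genes share promoter elements, and the sequences of 5 of them show the layout. The cell cycle homology region, bound by MuvB complexes, was searched as TTTGAA or TTCGAA, and the CCAAT box, bound by NF-Y, as CCAAT, both on either strand. The promoters were RefSeq's on GRCm38.p6, 250 bases before to 50 after each annotated start. The table held 41 of the 48 genes. Incenp, Ccna2, Aurkb, Cdc25c, Smc4, Kif20a and Tpx2 had no entry. The 5 below run from 110 bases before the start to 40 bases from it and are read 5′ to 3′ on the gene's strand, with both motifs in capitals (a CCAAT on the other strand reads ATTGG).
Cdk1 (chr10:69352873-69353022, minus strand): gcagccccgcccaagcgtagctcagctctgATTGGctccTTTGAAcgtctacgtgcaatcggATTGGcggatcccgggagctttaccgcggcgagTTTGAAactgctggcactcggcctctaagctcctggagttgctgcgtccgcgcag
Ccnb2 (chr9:70421515-70421664, minus strand): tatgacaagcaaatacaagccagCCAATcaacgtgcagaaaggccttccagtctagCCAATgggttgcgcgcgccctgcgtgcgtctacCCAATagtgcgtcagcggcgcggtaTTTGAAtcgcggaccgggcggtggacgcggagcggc
Cdc20 (chr4:118437304-118437453, minus strand): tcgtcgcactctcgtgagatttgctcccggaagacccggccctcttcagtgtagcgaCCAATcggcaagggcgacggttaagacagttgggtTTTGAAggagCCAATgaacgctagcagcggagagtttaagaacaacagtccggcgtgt
Plk1 (chr7:122159325-122159474, plus strand): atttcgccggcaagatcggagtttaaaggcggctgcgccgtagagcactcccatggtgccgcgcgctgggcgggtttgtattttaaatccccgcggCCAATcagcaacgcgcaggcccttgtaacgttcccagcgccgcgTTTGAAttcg
Aurka (chr2:172370531-172370680, minus strand): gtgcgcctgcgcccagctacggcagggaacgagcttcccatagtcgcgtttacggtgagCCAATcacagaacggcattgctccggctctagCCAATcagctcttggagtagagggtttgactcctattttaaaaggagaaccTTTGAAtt
Each of the 5 holds at least 1 CCAAT box and a TTTGAA within 50 bases of the start. The promoters considered for printing were those of Cdk1, Ccnb1, Ccnb2, Cdc20, Plk1, Aurka and Birc5. Only those with a cell cycle motif in the printed stretch were shown, so its presence in all 5 was a condition. The genes they belong to did not share a direction in OFF, with Ccnb2 called higher and Cdk1, Cdc20, Plk1 and Aurka below 0 without a call. The windows of Ccnb1 and Birc5 held no cell cycle motif.

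Of the 41 genes with a promoter, 32 (78.05%, exact 95% interval 62.39% to 89.44%) held the cell cycle motif. By promoter the share was 79.55% of the 44 promoters of these genes, against 19.23% of all 32851 promoters in the table. CCAAT was also found in 32 of the 41 genes, and its share was 79.55% of their promoters against 37.41% of all. Both motifs stood together in 29 of the 41 genes, which was 72.73% of their promoters and 7.525% of all. Bub3, Ect2 and Prc1 have a pair of overlapping windows each, so their promoters are not separate sequences. The cell cycle matches gathered at the start, where 69.57% of the 46 matches in these genes lay within 50 bases of it, against 25.15% of matches in all promoters. Of the 80 CCAAT matches in these genes 65.0% lay in the 100 bases before the start, against 43.62% of those in all promoters. The median log2 fold change was -0.02 for the 32 genes with the cell cycle motif and 0.09 for the 9 without it. A match is a description of the letters in this window and does not show that a factor is bound there.

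**Figure D3:**
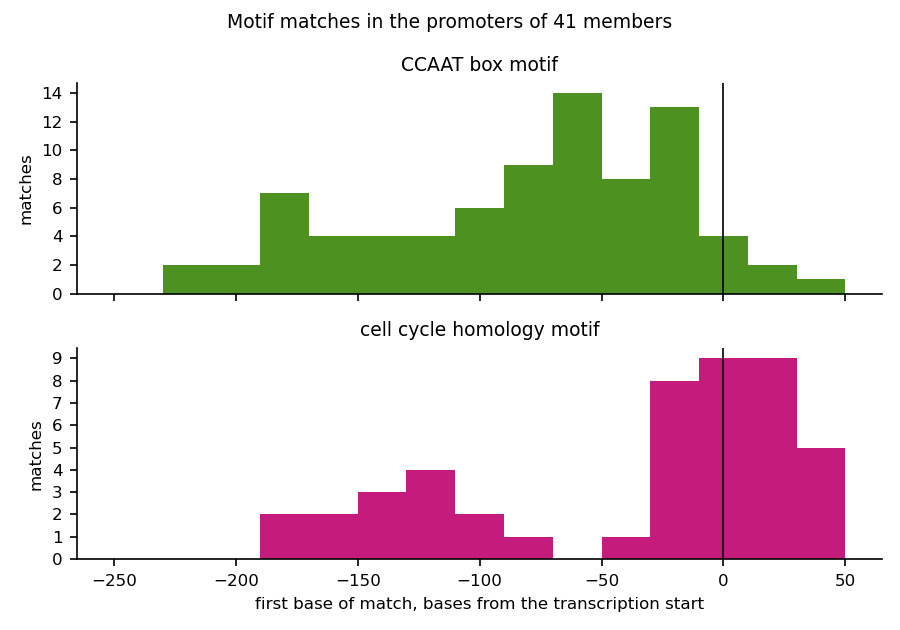
Number of motif matches on either strand by the position of their first base relative to the transcription start, in bases, in the promoters of 41 of the genes (upper panel the CCAAT box, lower panel the cell cycle motif). CCAAT boxes lie mostly before the start, while 69.57% of the cell cycle matches lie within 50 bases of it.

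Among the 7 cyclins, Cdk1 and its activators, Ccnb2 alone was called. Ccnb2 encodes cyclin B2, a partner of Cdk1 (GRCm38, chromosome 9, 70407692 to 70421547, minus strand). Its levels were 81.9, 76.4 and 70.2 CPM in ON replicates 1 to 3 and 94.2, 105 and 108 CPM in OFF replicates 1 to 3. All 3 OFF libraries lay above all 3 ON libraries, and the level rose from 76.2 ± 5.84 to 102 ± 7.1 CPM on average (SD, n = 3; log2 fold change 0.42, SE 0.11, adjusted p = 0.00751). The call was lost without ON replicate 3, at a log2 fold change of 0.36 and an adjusted p of 0.0676, and held without each other library. Means here and below carry the SD over 3 libraries. Ccnb1 encodes cyclin B1, the other main B-type cyclin. It read 83.0, 84.4 and 78.4 CPM in ON and 75.2, 67.0 and 62.4 CPM in OFF. Here all OFF libraries lay below all ON libraries, but the difference missed the threshold (log2 fold change -0.26, SE 0.11, adjusted p = 0.0744). Without OFF replicate 1 it passed, at -0.34 and an adjusted p of 0.0197. Ccnb2 over Ccnb1, a ratio formed after the values were seen, was 0.986, 0.906 and 0.896 in ON and 1.25, 1.56 and 1.72 in OFF, so the mRNAs of the 2 cyclins moved apart in each OFF library.

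Ccna2, the cyclin A of S phase and G2, read 126, 121 and 127 CPM in ON and 105, 103 and 106 CPM in OFF. The groups did not overlap and the spread within each was small, yet the call was missed (log2 fold change -0.25, SE 0.10, adjusted p = 0.066). Cdk1, the kinase itself, read 163, 168 and 153 CPM in ON and 138, 137 and 163 CPM in OFF. OFF replicates 1 and 2 were below every ON library and OFF replicate 3 was among them (log2 fold change -0.15, SE 0.11, adjusted p = 0.32). Cks2, a small Cdk1-binding protein, read 104, 116 and 109 CPM in ON and 90.6, 94.3 and 111 CPM in OFF (log2 fold change -0.15, SE 0.11, adjusted p = 0.317), again with only OFF replicate 3 inside the ON range. Without OFF replicate 3 all of these passed the test, Ccna2 at -0.25 (adjusted p = 0.0275), Cdk1 at -0.23 (adjusted p = 0.0481) and Cks2 at -0.24 (adjusted p = 0.0446). Cdc25b and Cdc25c, phosphatases that activate Cdk1, were the genes with the lowest counts. Cdc25b read 5.6, 4.44 and 4.71 CPM in ON and 6.33, 6.79 and 5.5 CPM in OFF, with overlapping groups (log2 fold change 0.33, SE 0.21, adjusted p = 0.239). Cdc25c had a log2 fold change of -0.16 with an SE of 0.22 (adjusted p = 0.618).

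Among the entry kinases and spindle assembly genes none of 7 was called. Plk1, the kinase that promotes entry and centrosome maturation, read 124, 134 and 128 CPM in ON and 107, 103 and 118 CPM in OFF (log2 fold change -0.23, SE 0.10, adjusted p = 0.10). Aurka, the centrosomal Aurora kinase, read 66.2, 73.9 and 68.3 CPM in ON and 55.2, 59.4 and 61.1 CPM in OFF (log2 fold change -0.25, SE 0.11, adjusted p = 0.0857). For both kinases the OFF libraries lay below all ON libraries without overlap. Both passed once OFF replicate 3 was left out, Plk1 at -0.29 (adjusted p = 0.0148) and Aurka at -0.27 (adjusted p = 0.031). Nusap1, a spindle microtubule-bundling protein, leaned the other way, at 91.0, 94.9 and 86.7 CPM in ON and 124, 122 and 93.3 CPM in OFF (log2 fold change 0.31, SE 0.12, adjusted p = 0.0573). OFF replicates 1 and 2 were above all ON libraries and OFF replicate 3 lay inside the ON range. Without OFF replicate 3 its log2 fold change was 0.44 (adjusted p = 0.00048). With all 6 libraries Nusap1 also passed with a minimum of 10 CPM (0.34, adjusted p = 0.0442) and without the ribosomal RNA rows (0.33, adjusted p = 0.0468). Kif11, the motor that pushes spindle poles apart, read 77.0, 80.8 and 80.9 CPM in ON and 85.5, 72.8 and 60.9 CPM in OFF (log2 fold change -0.12, SE 0.12, adjusted p = 0.481). Tpx2, an activator of Aurora A, was at -0.05, Hmmr, a spindle pole protein, at -0.18, and Kif2c, a microtubule depolymerase, at 0.22, with adjusted p of 0.784, 0.328 and 0.258.

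The chromosomal passenger complex corrects faulty attachments and serves cytokinesis, and none of its 4 genes was called. Aurkb, its kinase, read 20.6, 28.5 and 22.8 CPM in ON and 17.4, 20.8 and 22.8 CPM in OFF, with overlapping groups (log2 fold change -0.24, SE 0.15, adjusted p = 0.247). Birc5, or survivin, read 158, 159 and 166 CPM in ON and 151, 162 and 162 CPM in OFF (log2 fold change -0.02, SE 0.10, adjusted p = 0.877). Its 95% interval, from -0.24 to 0.19, lay on both sides of 0. Cdca8, or borealin, was below ON in all 3 OFF libraries without a call (-0.15, adjusted p = 0.256), and the scaffold Incenp had overlapping groups (0.06, adjusted p = 0.704).

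All 5 spindle checkpoint genes had log2 fold changes below 0, and 1 was called. Bub1, a kinase that recruits checkpoint proteins to kinetochores (GRCm38, chromosome 2, 127801122 to 127831865, minus strand), read 49.9, 41.3 and 46.6 CPM in ON and 37.4, 35.6 and 32.3 CPM in OFF. Every OFF library was below every ON library, and the level fell from 46.0 ± 4.32 to 35.1 ± 2.58 CPM on average (SD, n = 3; log2 fold change -0.39, SE 0.12, adjusted p = 0.0192). That call rested on single libraries. It was lost without ON replicate 1 (-0.32, adjusted p = 0.107), without ON replicate 3 (-0.38, adjusted p = 0.0724) and without OFF replicate 2 (-0.40, adjusted p = 0.0542). It was also lost in the authors' normalised values tested with limma (-0.36, adjusted p = 0.0666). Bub1b, or BubR1, read 38.8, 47.3 and 42.5 CPM in ON and 45.4, 37.9 and 38.5 CPM in OFF, with full overlap (log2 fold change -0.08, SE 0.12, adjusted p = 0.652). Ttk, or Mps1, the kinase that starts checkpoint signalling, read 50.9, 52.3 and 56.6 CPM in ON and 59.1, 49.2 and 34.2 CPM in OFF (log2 fold change -0.16, SE 0.16, adjusted p = 0.465). OFF replicate 3 was the lowest library by a wide margin while OFF replicate 1 was the highest. Ttk passed without OFF replicate 1 (-0.35, adjusted p = 0.0497) and stood at 0.03 without OFF replicate 3. Bub3 lay below ON in all 3 OFF libraries (-0.12, adjusted p = 0.385) and Mad2l1, the Mad2 effector, had overlapping groups (-0.09, adjusted p = 0.608).

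All 7 kinetochore and centromere genes had log2 fold changes above 0, with a median of 0.09, and none was called. Ndc80, the microtubule-binding subunit of the outer kinetochore, came nearest, at 42.5, 42.8 and 41.6 CPM in ON and 52.8, 53.5 and 48.3 CPM in OFF (log2 fold change 0.28, SE 0.11, adjusted p = 0.051). Its groups did not overlap. Ndc80 passed without OFF replicate 3 (0.33, adjusted p = 0.0107), with a minimum of 10 CPM (0.31, adjusted p = 0.0285), without the ribosomal RNA rows (0.30, adjusted p = 0.0397) and in the authors' normalised values (0.33, adjusted p = 0.048). Nuf2 and Spc25, of the same complex, had log2 fold changes of 0.09 and 0.01 (adjusted p of 0.59 and 0.947). Cenpa, the centromeric histone H3 variant, read 59.8, 63.2 and 61.4 CPM in ON and 52.8, 66.8 and 72.9 CPM in OFF (log2 fold change 0.06, SE 0.12, adjusted p = 0.74). Its OFF libraries spread to both sides of ON. Cenpe, a kinetochore motor, read 189, 192 and 200.3 CPM in ON and 249, 249.8 and 154 CPM in OFF (log2 fold change 0.17, SE 0.16, adjusted p = 0.435). Cenpf, a large kinetochore protein, read 167, 153 and 167 CPM in ON and 195, 184 and 117 CPM in OFF (log2 fold change 0.03, SE 0.16, adjusted p = 0.902). Both had OFF replicates 1 and 2 above every ON library and OFF replicate 3 below every one. Without OFF replicate 3, Cenpe stood at 0.37 (adjusted p = 0.00143) and Cenpf at 0.23 (adjusted p = 0.0403). Single libraries turned the sign of 3 of the 7 genes, with Cenpa at -0.04 without OFF replicate 3 and Cenpf at -0.10 and Spc25 at -0.03 without OFF replicate 1. Knstrn, or kinastrin, was above ON in all 3 OFF libraries without a call (0.22, adjusted p = 0.164).

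None of the 5 genes of the anaphase-promoting complex, its regulators and separase was called. Cdc20, the activator that the checkpoint holds back, read 94.4, 109.7 and 104 CPM in ON and 89.8, 79.0 and 104 CPM in OFF (log2 fold change -0.18, SE 0.12, adjusted p = 0.274). OFF replicate 3 lay inside the ON range and the other two OFF libraries below it. Cdc20 passed without OFF replicate 3 (-0.28, adjusted p = 0.0268). Ube2c, the ubiquitin-conjugating enzyme of the complex, was at -0.06, adjusted p = 0.701, and Fbxo5, its inhibitor Emi1, at 0.08, adjusted p = 0.593. Pttg1, or securin, was at 0.17, adjusted p = 0.357, and Espl1, the protease separase that securin holds inactive, at -0.06, adjusted p = 0.754.

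Midzone and cytokinesis genes also gave no call among 7. Prc1, which bundles the microtubules of the midzone, read 111, 104 and 106 CPM in ON and 115, 120.1 and 104 CPM in OFF (log2 fold change 0.08, SE 0.10, adjusted p = 0.596). Its 3' end overlaps exons of Rccd1 on the opposite strand over 911 bases. The strand setting of the counting is not given in the sources used here, so reads of the 2 genes in those bases cannot be told apart. The same holds for Kif20a with Cdc23 (1271 shared bases), Ncapg with Lcorl (944) and Cdc20 with Elovl1 (53). Among these opposite-strand partners Rccd1, Cdc23, Lcorl and Elovl1 were not called. Exosc9, which shares 510 exonic bases with Ccna2, 353 bases from its end, was lower in OFF (-0.38, adjusted p = 0.0311). So was Gm3550 (-0.38, adjusted p = 0.0317), which shares 623 exonic bases with Cdc25c, 3366 bases from its end. On its own strand Ncapd2 shares 237 exonic bases with Scarna10 and 235 with Gm28967, neither of which was tested. Kif23, a motor of the centralspindlin complex, was above ON in all 3 OFF libraries without a call (0.21, adjusted p = 0.136), and its partner Racgap1 was at 0.04, adjusted p = 0.786. Ect2, the exchange factor that starts furrowing, was at 0.13, adjusted p = 0.428, and Anln, or anillin, at -0.03, adjusted p = 0.869. The motors Kif20a and Kif4 were at -0.21, adjusted p = 0.196, and -0.01, adjusted p = 0.958.

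Chromosome structure genes held the other gene called higher. Ncapd2, a regulatory subunit of condensin I (GRCm38, chromosome 6, 125168007 to 125191701, minus strand), read 119, 117 and 129 CPM in ON and 151, 147 and 159.5 CPM in OFF. All OFF libraries were above all ON libraries, and the level rose from 122 ± 6.16 to 153 ± 6.27 CPM on average (SD, n = 3; log2 fold change 0.33, SE 0.10, adjusted p = 0.0218). OFF replicate 3 was the highest library here. The call was lost without ON replicate 1 (0.31, adjusted p = 0.0924), ON replicate 2 (0.30, adjusted p = 0.112) and ON replicate 3 (0.36, adjusted p = 0.0566), and held without each OFF library. Smc4, the core ATPase of condensin, read 1057, 942 and 1019.6 CPM in ON and 1303, 1399 and 1010.1 CPM in OFF (log2 fold change 0.30, SE 0.12, adjusted p = 0.0625). OFF replicates 1 and 2 lay above ON and OFF replicate 3 lay inside its range. Smc4 passed without OFF replicate 3, at 0.43 (adjusted p = 0.000325). With all 6 libraries it also passed with a minimum of 10 CPM (0.33, adjusted p = 0.0458) and without the ribosomal RNA rows (0.32, adjusted p = 0.0496). Its partner Smc2 read 271, 269 and 298 CPM in ON and 294, 277 and 192 CPM in OFF (log2 fold change -0.13, SE 0.14, adjusted p = 0.487), so the 2 condensin ATPases had opposite signs and neither was called. Ncapg, another condensin I subunit, was at 0.0018 (adjusted p = 0.994).

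Top2a and Mki67, the most used marks of proliferating cells, were not called. Top2a, the topoisomerase that untangles chromosomes, read 795, 837 and 828 CPM in ON and 849, 791 and 613 CPM in OFF (log2 fold change -0.13, SE 0.12, adjusted p = 0.427). Mki67, the Ki-67 protein that coats mitotic chromosomes, read 588, 565 and 594 CPM in ON and 729.8, 663 and 425 CPM in OFF (log2 fold change 0.06, SE 0.16, adjusted p = 0.817). OFF replicates 1 and 2 of Mki67 lay above every ON library and OFF replicate 3 far below. Without OFF replicate 3 it passed at 0.26 (adjusted p = 0.0153), while Top2a stood at 0.0043.

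Counting the genes whose 3 OFF libraries all lay beyond the 3 ON libraries gave 5 above (Ccnb2, Ndc80, Knstrn, Kif23 and Ncapd2) and 7 below (Ccna2, Ccnb1, Plk1, Aurka, Cdca8, Bub1 and Bub3). Over all rows tested the shares were 23.8% above and 24.5% below. The 5 and 7 of 48 are smaller shares than those.

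**Figure D4:**
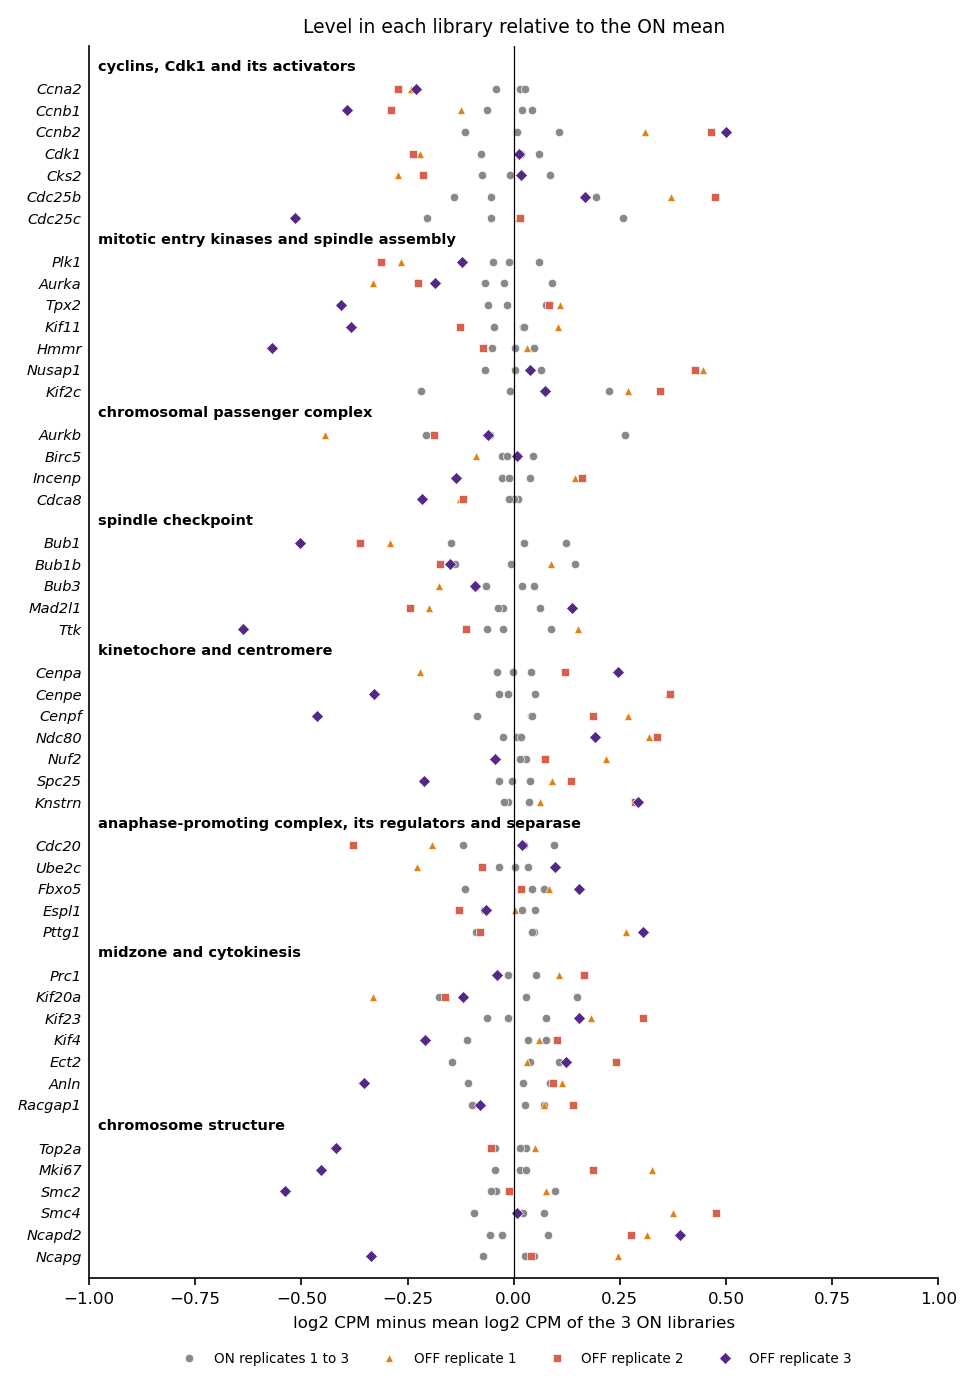
Level of each of the 48 genes in each library as log2 CPM minus the mean log2 CPM of the 3 ON libraries (grey points ON, coloured marks OFF replicates 1 to 3). ON libraries stay close together, and OFF replicate 3 (diamonds) often lies on the other side of ON from OFF replicates 1 and 2, as for Cenpe, Cenpf and Mki67.

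OFF replicate 3 set much of the spread. The CPM of the 48 genes summed to 6013, 5970.4 and 6051 in ON and to 6568, 6511 and 5355 in OFF. The ON libraries were close to one another, OFF replicates 1 and 2 were above all of them, and OFF replicate 3 was below. The group means were 6012 ± 40.5 and 6145 ± 685 (SD, n = 3), a difference (ratio 1.02) smaller than the spread within OFF. These sums weigh abundant mRNAs such as Smc4, Top2a and Mki67 most. By gene, the median log2 level relative to the ON mean was 0.074, 0.016 and -0.085 in OFF replicates 1 to 3. In these libraries 32, 26 and 19 of the 48 genes lay above that mean. OFF replicate 3 was the lowest of the 6 libraries for 19 of the 48 genes. Without it, 8 genes were called higher (Ccnb2, Cenpe, Cenpf, Mki67, Ncapd2, Ndc80, Nusap1 and Smc4) and 7 lower (Aurka, Bub1, Ccna2, Cdc20, Cdk1, Cks2 and Plk1). The shares of all 13957 rows tested in that fit were 18.3% higher and 19.3% lower. The 8 and 7 of 48 are near those shares and below them, so these counts do not set the 48 genes apart. The median log2 fold change of the 48 was then 0.04. By role, the 7 lower genes were Ccna2, Cdk1 and Cks2 of the cyclin and Cdk1 group, the entry kinases Plk1 and Aurka, Bub1 of the checkpoint and the activator Cdc20. The 8 higher genes were Ccnb2, Nusap1, the kinetochore genes Cenpe, Cenpf and Ndc80, and the chromosome structure genes Mki67, Smc4 and Ncapd2. This listing is a description, and a difference between roles was not tested.

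The way OFF replicate 3 differed from the other OFF libraries went with transcript length, a relation examined after the values were seen and given as a description. Length is that of the longest annotated protein-coding transcript in GENCODE M21. Across the 48 genes the log2 difference between OFF replicate 3 and the mean of OFF replicates 1 and 2 had a Spearman rho of -0.46 and a Pearson r of -0.50 with length, all from the same 3 libraries. For the 12 longest, of 4602 to 11130 bases, the median difference was -0.40 and 9 were below 0. For the 12 shortest, of 692 to 2191 bases, it was 0.16 and 3 were below 0. The lowest values belonged to Mki67 (-0.71), Cenpe (-0.69), Cenpf (-0.69), Ttk (-0.66) and Smc2 (-0.57). Mad2l1, with an annotated transcript of 7557 bases, went against this with the highest value (0.36). GC content of the transcript gave a rho of 0.40 and an r of 0.41 across the 48 genes. Over 10482 tested rows with a protein-coding transcript, the rho was -0.19 for length and 0.26 for GC content. Both relations had the same sign over all rows as over the 48 genes and were weaker there. The 9 mature neutrophil markers also summed highest in OFF replicate 3, at 25131 CPM against 15986 and 20563 CPM in OFF replicates 1 and 2. The part of length, GC content, RNA quality or neutrophil content in these values was not tested.

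**Figure D5:**
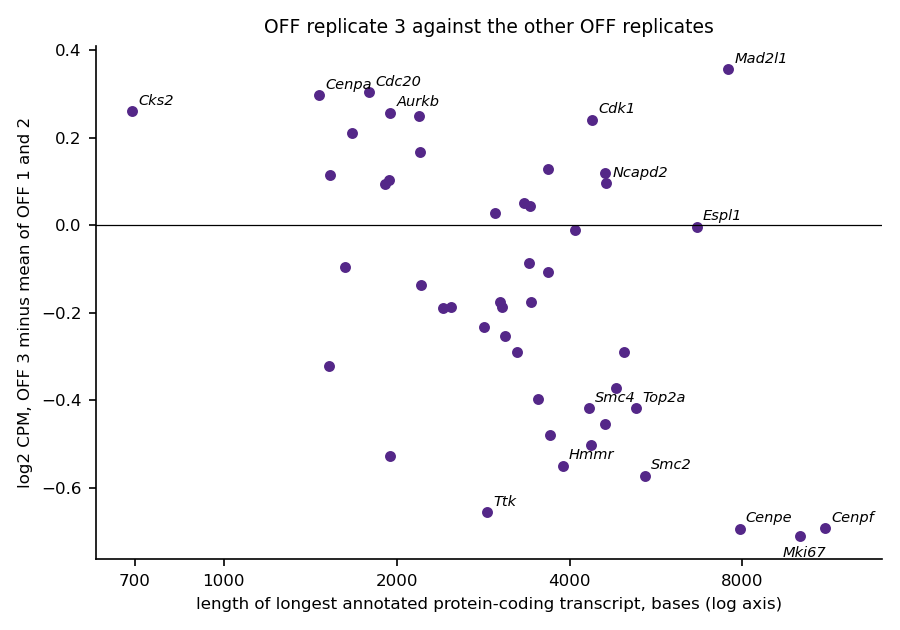
Difference in log2 CPM between OFF replicate 3 and the mean of OFF replicates 1 and 2 for each of the 48 genes (vertical axis) against the length of its longest annotated protein-coding transcript in bases (horizontal log axis). Mki67, Cenpe and Cenpf, with long transcripts, lie lowest, and Mad2l1 is the exception at the top right.

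Some markers of other bone marrow cell types also differed between the groups. The summed CPM of 9 erythroid markers was 188 to 263 in ON and 614 to 959.8 in OFF, and 5 of the 6 that could be tested were higher in OFF while Tfrc was lower. The globin genes Hba-a1, Hba-a2, Hbb-bs and Hbb-bt made up most of that sum. Alas2, the erythroid enzyme of haem synthesis, was also higher in OFF (log2 fold change 2.03, adjusted p = 0.00642), at 8, 1 and 3 counts in ON and 13, 19 and 21 in OFF. Slc4a1, the red cell anion exchanger, had too few counts to be tested, at 1, 3 and 1 in ON and 8, 10 and 5 in OFF, so its OFF libraries lay above its ON libraries. Klf1 and Epor, a transcription factor and the erythropoietin receptor, were at 0 to 7 counts in every library. Of 9 mature neutrophil markers 7 were higher in OFF, with sums of 19617 to 21098 CPM in ON and 15986 to 25131 CPM in OFF. S100a8 and S100a9 made up most of these sums and were not called, with log2 fold changes of -0.29 and -0.27 (adjusted p of 0.0608 and 0.0666), and for each gene every OFF library lay below every ON library. Of 7 monocyte and macrophage markers 6 were higher and Vcam1 was lower, with sums of 505 to 577 CPM in ON and 678 to 930.1 CPM in OFF. Of 5 megakaryocyte and platelet markers Gp1bb alone was tested and higher, at 36.1, 35.8 and 32.0 CPM in ON and 54.0, 54.9 and 61.2 CPM in OFF. It made up nearly all of the list sums, which were 32.2 to 37.0 CPM in ON and 54.9 to 63.8 CPM in OFF. Pf4, Ppbp, Itga2b and Gp9 were at 0 to 11 counts in every library. Lymphoid and stromal markers were low throughout. Markers of B cells summed to at most 2.34 CPM and those of T and NK cells to at most 4.62 CPM in any library. Vpreb1, the only B cell marker tested, was called higher in OFF (log2 fold change 1.21, adjusted p = 0.0497). It was at 7, 6 and 2 counts in ON and 13, 12 and 12 in OFF. Endothelial and stromal markers summed to 6.82 to 11.4 CPM, and Lepr was at 0 counts in all libraries. Leukaemia line markers gave Mpo, Elane, Meis1 and Ptprc higher and Ctsg lower, while Hoxa9 and Cd34 were not called. The part of cell content or maturation in the levels of the mitotic genes was not tested.

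Genes of the same processes outside the 48 were counted in the same fit. Of 98 such genes in 5 lists, all tested, 8 were higher and 8 lower in OFF (16.3% called, against 34.8% of all rows). Their median log2 fold change was 0.04. Without OFF replicate 3, 19 of the 98 were higher and 11 lower, nearer to the 37.6% of all rows called in that fit. With all libraries and by list, 1 of 14 entry regulators was higher and 2 lower, and 1 of 21 spindle and midzone genes was higher. Among kinetochore and checkpoint genes 3 of 31 were higher and 5 lower (25.8% called). Among condensin and cohesin genes 1 of 16 was higher, and among subunits of the anaphase-promoting complex 2 of 16 were higher and 1 lower. Trip13, the ATPase that disassembles checkpoint complexes, fell from 32.7 ± 0.959 to 18.9 ± 0.85 CPM on average (log2 fold change -0.79, SE 0.12, adjusted p = 0.00015), and its groups did not overlap. Pkmyt1, a kinase that inhibits Cdk1, rose from 26.5 ± 1.19 to 36.7 ± 1.51 CPM on average (log2 fold change 0.47, SE 0.11, adjusted p = 0.0052). Both calls, and that of Anapc13 (0.64, adjusted p = 0.00161), held without each library in turn. Cdc25a, a phosphatase that acts on Cdk2 and Cdk1, fell from 158 ± 10.8 to 122 ± 9.43 CPM on average (log2 fold change -0.38, SE 0.11, adjusted p = 0.0129). It was not called without ON replicate 1 (-0.33, adjusted p = 0.0828), nor in the authors' normalised values tested with limma (-0.33, adjusted p = 0.0636).

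The other genes that the naming rule took from these lists had calls that single libraries decided. They were Dlgap5 (0.52, adjusted p = 0.0113), Cenpu (0.47, adjusted p = 0.0215), Cenpo (0.56, adjusted p = 0.0234), Pmf1 (0.30, adjusted p = 0.0497), Stag2 (0.39, adjusted p = 0.0213) and Anapc2 (0.52, adjusted p = 0.0187), all higher. Lower were Gtse1 (-0.39, adjusted p = 0.0484), Ska3 (-0.55, adjusted p = 0.0106), Cenpw (-0.38, adjusted p = 0.0132) and Anapc1 (-0.49, adjusted p = 0.0111). Without ON replicate 1 the adjusted p was 0.0678 for Gtse1, 0.0551 for Cenpu, 0.131 for Pmf1, 0.075 for Cenpw, 0.081 for Stag2 and 0.0601 for Anapc1. Without ON replicate 2 it was 0.167 for Gtse1, 0.0782 for Dlgap5, 0.0869 for Cenpu, 0.0537 for Cenpo, 0.165 for Pmf1, 0.0566 for Ska3, 0.0906 for Stag2, 0.113 for Anapc2 and 0.0768 for Anapc1. Pmf1, a kinetochore assembly protein, and Gtse1, a microtubule-binding regulator, were the nearest of these to the threshold with all libraries. Leaving out ON replicate 3 gave 0.146 for Gtse1, 0.0727 for Cenpu, 0.133 for Cenpo, 0.144 for Pmf1, 0.0691 for Cenpw and 0.0747 for Stag2. Leaving out OFF replicate 1 gave 0.142 for Gtse1, and leaving out OFF replicate 3 gave 0.0835 for Pmf1. Without OFF replicate 2 the values were 0.0625 for Dlgap5, 0.0759 for Cenpo, 0.0798 for Pmf1, 0.0528 for Ska3, 0.11 for Stag2 and 0.0655 for Anapc1. Each of these genes kept its sign in these fits. Other methods lost calls too with all 6 libraries. The Wald test of DESeq2 gave adjusted p of 0.107 for Gtse1, 0.0992 for Cenpu, 0.0772 for Cenpo, 0.0634 for Pmf1 and 0.0634 for Anapc2. The authors' normalised values tested with limma gave 0.0825 for Gtse1, 0.0508 for Dlgap5, 0.0821 for Pmf1, 0.0538 for Cenpw, 0.0677 for Stag2 and 0.0603 for Anapc1.

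Among the transcription factors that act on G2/M promoters, Mybl2 was called and Foxm1 was not. Mybl2, or B-Myb, which joins MuvB in S phase to switch on mitotic genes, read 61.0, 57.9 and 57.1 CPM in ON and 37.4, 26.7 and 33.9 CPM in OFF. Its level fell from 58.6 ± 2.07 to 32.7 ± 5.45 CPM on average with no overlap between groups (log2 fold change -0.84, SE 0.13, adjusted p = 0.00017), and the call held without each library. Foxm1, the factor that takes over in G2, read 20.7, 22.2 and 22.9 CPM in ON and 25.4, 21.9 and 27.6 CPM in OFF and was not called (log2 fold change 0.19, SE 0.13, adjusted p = 0.282). The MuvB subunits Lin9, Lin37, Lin52 and Lin54, named after their values were seen like Foxm1, were not called either (-0.15, 0.45, -0.49 and -0.37, the lowest adjusted p being 0.068). Of the 20 genes of cell cycle transcription control, 2 were higher and 5 lower, or 35.0% called, which is near the background share (34.8%). Rbl2, the p130 protein of the repressive DREAM complex, rose from 26.8 ± 1.23 to 40.2 ± 2.24 CPM on average (log2 fold change 0.58, SE 0.11, adjusted p = 0.00119). Rb1, the retinoblastoma protein, was higher (0.49, adjusted p = 0.0133), but not without ON replicate 3 (adjusted p = 0.0834) or OFF replicate 2 (adjusted p = 0.082). E2f4 and E2f3 were lower, at -0.54, adjusted p = 0.00468, and -0.62, adjusted p = 0.00504. E2f5 and E2f6, named after their values were seen, were lower too, at -0.58, adjusted p = 0.00645, and -0.37, adjusted p = 0.0485. The calls of E2f5 and E2f6 were not followed through the other fits.

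Of 12 regulators of G1, 11 were tested, 3 were higher and 3 lower (54.5% called, against 34.8% of all rows), and each of these 6 differed by more than any of the 48 mitotic genes. Ccnd1 (cyclin D1) fell from 26.4 ± 1.21 to 2.22 ± 0.197 CPM on average (log2 fold change -3.57, SE 0.17, adjusted p = 2.22e-08), Ccnd2 (cyclin D2) fell from 47.1 ± 5.54 to 5.35 ± 1.72 CPM on average (log2 fold change -3.13, SE 0.19, adjusted p = 2.01e-07), and Cdkn1a, the p21 inhibitor, fell from 89.1 ± 6.76 to 32.2 ± 3.73 CPM on average (log2 fold change -1.47, SE 0.12, adjusted p = 1.06e-06). The inhibitors Cdkn2c, Cdkn1c and Cdkn1b, or p18, p57 and p27, were higher, at 1.05, adjusted p = 9.07e-05, 1.38, adjusted p = 0.000321, and 0.63, adjusted p = 0.00147. For each of these 6 genes the OFF and ON libraries did not overlap. Of 50 genes of DNA replication and S phase, 6 were higher and 4 lower (20% called, against the same 34.8%), with a median of 0.11. Tk1 (thymidine kinase, 0.63, adjusted p = 0.000513), Lig1 (DNA ligase 1, 0.48, adjusted p = 0.00341) and Pold1 (a polymerase delta subunit, 0.53, adjusted p = 0.00514) were higher. Ccne1 (-0.50, adjusted p = 0.00804), Pold2 (-0.49, adjusted p = 0.0205) and Ccne2 (-0.33, adjusted p = 0.0314) were lower. Ccne1 and Ccne2 encode the E cyclins, which partner Cdk2 at the start of S phase. The 3 calls were lost without ON replicate 3, at adjusted p of 0.0526, 0.0655 and 0.165. Without ON replicate 1 or ON replicate 2, Pold2 (0.0700 and 0.0645) and Ccne2 (0.0708 and 0.0685) also missed the threshold, as did Pold2 without OFF replicate 2 (0.104).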

How the data were processed

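RNA from sorted leukaemic cells of 6 mice was made into libraries with a QuantSeq 3' kit from Lexogen, per the labels' protocols. Tools named in the submitters' processing notes are HISAT2 2.0.4, featureCounts of Subread 1.6.3, cutadapt 1.9.1, bcl2fastq 2.17.1.14, FastQC 0.11.6, limma 3.42.2 and R 3.6.1, with genome mm10. No sorting gate, annotation, strand setting or rule for reads with several positions is given in the sources used here.

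The deposited table held raw counts in 54838 rows. Of these, 1105 without a name (0.1453% to 0.1718% of counts) were left out, and 235 named rows shared a symbol. The authors' deposited log2 values for 12287 rows served as an alternative. Groups came from the sample titles. Every pair of replicates differed by more than sampling noise. In R 4.3.3, edgeR 4.0.16 kept rows by filterByExpr (minimum count 10, minimum total 15), scaled libraries by TMM and compared OFF with ON by its robust quasi-likelihood test without covariates, with Benjamini-Hochberg adjustment over all tested rows at 0.05. The SE is the fold change over the root of F, and the 95% interval uses the fit's degrees of freedom. Named were called genes, the 3 most positive and negative, fixed anchors of each role, genes whose call turned on 1 library, and up to 3 called genes per direction in related lists. The members and lists were chosen with earlier results of these data known. Transcript lengths and overlaps came from GENCODE M21 on GRCm38. With 3 libraries a group, an exact permutation test cannot go below a two-sided p of 0.1. Of the erythroid markers, 1 gene is not reported here.

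Alternatives were DESeq2 1.42.0 and its size factors, other filters, each library left out, a replicate block, ribosomal RNA rows left out, and the authors' log2 values with limma 3.58.1.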

Additional observations from a re-analysis of the deposited data

How the results depend on the processing

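With DESeq2's size factors, with its Wald test and with no filter, 2 of the 48 genes were called higher and 1 lower. The called genes were Ccnb2, Ncapd2 and Bub1 each time. Of all rows, 34.8%, 13.9% and 18.3% were called in these fits, so the gap to all rows was smaller in the Wald test and with no filter. Those fits took in low-count rows, with 27498 and 27499 rows tested. A minimum of 10 CPM, which left 46 of the genes, and leaving out ribosomal RNA rows each gave 5 higher and 1 lower. The authors' log2 values gave 3 higher and 0 lower. Without ribosomal RNA rows 34.95% of all rows were called, and in the authors' values 30.96%. Leaving out single libraries gave 0 to 8 higher and 0 to 7 lower, the most without OFF replicate 3 and none without ON replicate 3. The share of all rows called moved too, to 37.6% and 23.9% in those 2 fits, from 23.5% to 38.9% over the 6 libraries left out, and to 41.5% with the minimum of 10 CPM. Among the 98 related genes these counts ran from 2 to 19 higher and 3 to 11 lower, the most without OFF replicate 3. The Wald test gave 4 higher and 5 lower, and the authors' values gave 3 lower. All intervals of the 48 genes (46 with the minimum of 10 CPM) stayed inside 2-fold in these fits.

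Replicate numbers did not pair the mice. Deviations of same-numbered libraries from their group means correlated at 0.0348, -0.0759 and -0.0504. With a replicate block 2 of the 48 genes were higher and 1 lower, against 32.25% of all rows called, and Ncapg stood at -0.014. For 15 uncalled genes the sign of the log2 fold change turned in at least 1 fit. With single libraries left out the values ran from -0.26 to 0.00022 for Cdc25c, -0.14 to 0.099 for Tpx2, -0.039 to 0.0069 for Birc5, -0.35 to 0.029 for Ttk and -0.035 to 0.18 for Cenpa. They ran from -0.10 to 0.23 for Cenpf, -0.053 to 0.12 for Spc25, -0.15 to 0.013 for Ube2c, -0.069 to 0.084 for Kif4 and -0.11 to 0.11 for Anln. For Racgap1 they ran from -0.0038 to 0.11, for Top2a from -0.22 to 0.0043, for Mki67 from -0.099 to 0.26, for Smc2 from -0.25 to 0.037 and for Ncapg from -0.14 to 0.15. With a minimum of 10 CPM Birc5 was at 0.0021 and Kif4 at 0.016, and without ribosomal RNA rows Kif4 was at 0.0090. With no filter Spc25 was at -0.0062 and Ncapg at -0.018, and the Wald test put Ncapg at -0.0066. The authors' values put Birc5 at 0.029 and Kif4 at 0.013. The causes were not tested.

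The cell cycle motif was in 78.05% of the 41 genes and 21.66% of all genes in the promoter table. TTTGAA alone gave 73.17% and 20.23%. A window of 150 bases before to 50 after the start left the first share at 78.05% and lowered that of all genes to 13.7%. Counts limit Cdc25b and Cdc25c, whose intervals were the widest.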
